A study of Homo sapiens with 10 samples.

Results

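The 9 miRNAs described here are best known from muscle and connective tissue: hsa-miR-1, hsa-miR-133a, hsa-miR-133b and hsa-miR-206 of striated muscle, hsa-miR-143 and hsa-miR-145 of smooth muscle, and hsa-miR-199a-5p, hsa-miR-199a-3p and hsa-miR-214 of fibroblasts and other mesenchymal cells. They were chosen by name, as the panel assays that carry exactly these names without a star, and make up 9 of 745 miRNA assays. The prefix hsa, for human, is left out from here on. They were measured by quantitative PCR in RNA taken up on streptavidin beads from cells that had carried a transfected nucleic acid probe for 24 hours. HepG2, a human liver tumour line, received a p21 probe, a STAT3 probe or a control probe, and PC-3, a human prostate cancer line, received a p21 probe or a control probe. Each of these 5 purifications was made 1 time and spread over 2 panels with different assays (10 samples). All 9 assays sit on panel 1, in 1 well per purification, so no difference between purifications could be checked against a replicate or given a p-value. Both lines are epithelial tumour cells. The sources used here give neither the sequence nor the position of the probes.

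MicroRNAs are short RNAs that guide Argonaute proteins to messenger RNAs, mainly by pairing through the seed, bases 2 to 8 from the 5′ end. In mouse muscle cells miR-1 and miR-206 favour differentiation, while miR-133a and miR-133b favour proliferation. miR-143 and miR-145 come from a shared transcript and help keep smooth muscle cells contractile. miR-199a and miR-214 come from an antisense transcript inside the dynamin 3 gene and are widely used as mesenchymal markers. Epithelial lines usually hold little of most of these miRNAs.

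The mature sequences below, from RefSeq (GRCh38.p14), are shown because 2 pairs of the assays target molecules that share a seed, printed in capitals, and differ by few bases elsewhere. All 9 names were matched, with miR-1 read as miR-1-3p, miR-133a as miR-133a-3p, miR-143 as miR-143-3p, miR-145 as miR-145-5p and miR-214 as miR-214-3p.
hsa-miR-1: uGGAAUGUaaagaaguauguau
hsa-miR-206: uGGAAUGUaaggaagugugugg
hsa-miR-133a: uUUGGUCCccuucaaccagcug
hsa-miR-133b: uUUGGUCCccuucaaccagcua
hsa-miR-143: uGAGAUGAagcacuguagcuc
hsa-miR-145: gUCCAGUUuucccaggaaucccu
hsa-miR-199a-5p: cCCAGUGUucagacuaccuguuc
hsa-miR-199a-3p: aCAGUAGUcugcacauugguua
hsa-miR-214: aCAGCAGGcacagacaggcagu

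With positions counted from 1 at the 5′ end, miR-206 differs from miR-1 at 4 bases (A11G, A17G, A21G and U22G), and miR-133b differs from miR-133a at 1 base (G22A). The other 5 seeds each occur 1 time among the 9. The mature miR-199a-3p is identical to miR-199b-3p, so an assay for it cannot tell the 2 genes apart. The sources used here do not say how well the panel separates miR-133a from miR-133b.

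Most of the members lie in clusters with a partner. In GRCh38.p14, the hairpin of miR-143 lies at chr5:149428918-149429023 and that of miR-145 at chr5:149430646-149430733, both on the plus strand, 1622 bases apart within the long noncoding RNA gene CARMN. MIR199A2, at chr1:172144535-172144644, and MIR214, at chr1:172138798-172138907, are on the minus strand, 5627 bases apart, within the span of DNM3 and of its antisense transcript gene DNM3OS. A further copy of miR-199a, MIR199A1, lies at chr19:10817426-10817496 within the span of DNM2. MIR1-1 and MIR133A2 are 10535 bases apart on chromosome 20 within MIR1-1HG, and MIR1-2 and MIR133A1 are 3218 bases apart on chromosome 18 within the spans of MIB1 and MIR133A1HG. The mature miR-206, at chr6:52144401-52144422, is followed after 4565 bases by mature miR-133b at chr6:52148988-52149009. The hairpin of MIR199A2 is shown because both its arms were assayed, and the capitals mark miR-199a-5p (positions 31 to 53) and miR-199a-3p (positions 70 to 91) on the same precursor.
MIR199A2 hairpin: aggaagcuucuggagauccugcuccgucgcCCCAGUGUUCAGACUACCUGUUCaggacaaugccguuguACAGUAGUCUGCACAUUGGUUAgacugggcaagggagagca

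Each HepG2 purification, the control probe's included, held 5 or 6 of these 9 muscle and stromal miRNAs, 4 of them with every probe, and none passed the limit in PC-3. The measure is the Cq, the PCR cycle at which the signal crosses threshold, so that 1 cycle less stands for about 2-fold more template, and a Cq of at most 35 counted as detected. In HepG2, p21 gave 5 of the 9, STAT3 gave 6 and control gave 6. Of all 375 assays on panel 1, 34.1% were detected in the p21 purification, 37.1% in the STAT3 purification and 28.8% in the control purification. In PC-3, 0 of 9 members were detected with the p21 probe and 0 with the control probe, where 10.1% and 2.13% of panel 1 assays passed. miR-133a, miR-133b, miR-145 and miR-199a-5p were detected in all 3 HepG2 purifications, while miR-206 gave no Cq in any purification.

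The other markers in the same purifications set these values in context. Of 6 liver miRNAs, p21 gave 0, STAT3 gave 4 and control gave 0 in HepG2, and miR-122, best known from liver, gave no Cq in any purification. How much miR-122 the HepG2 cells themselves held was not measured, so its absence here cannot be set against their content. Of 7 epithelial miRNAs, 1 was detected with p21, 4 with STAT3 and 0 with control in HepG2, and 1 with p21 and 0 with control in PC-3. Of 6 neural miRNAs, 5, 6 and 6 were detected in HepG2 with the p21, STAT3 and control probes, and of 6 blood-cell miRNAs 3, 3 and 4. The detected neural assays ran from Cq 29.16 to 34.90 with p21 and 28.52 to 34.66 with STAT3, against 28.97 to 34.18 with control, and the detected blood-cell assays from 32.77 to 34.68 with p21 and 32.74 to 34.07 with STAT3, against 31.53 to 34.02 with control. None of these neural or blood-cell miRNAs passed the limit in PC-3. What these other groups share with the muscle and stromal signal was not tested. Water wells, 9 per purification over both panels, gave 0 Cq values.

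**Figure D1:**
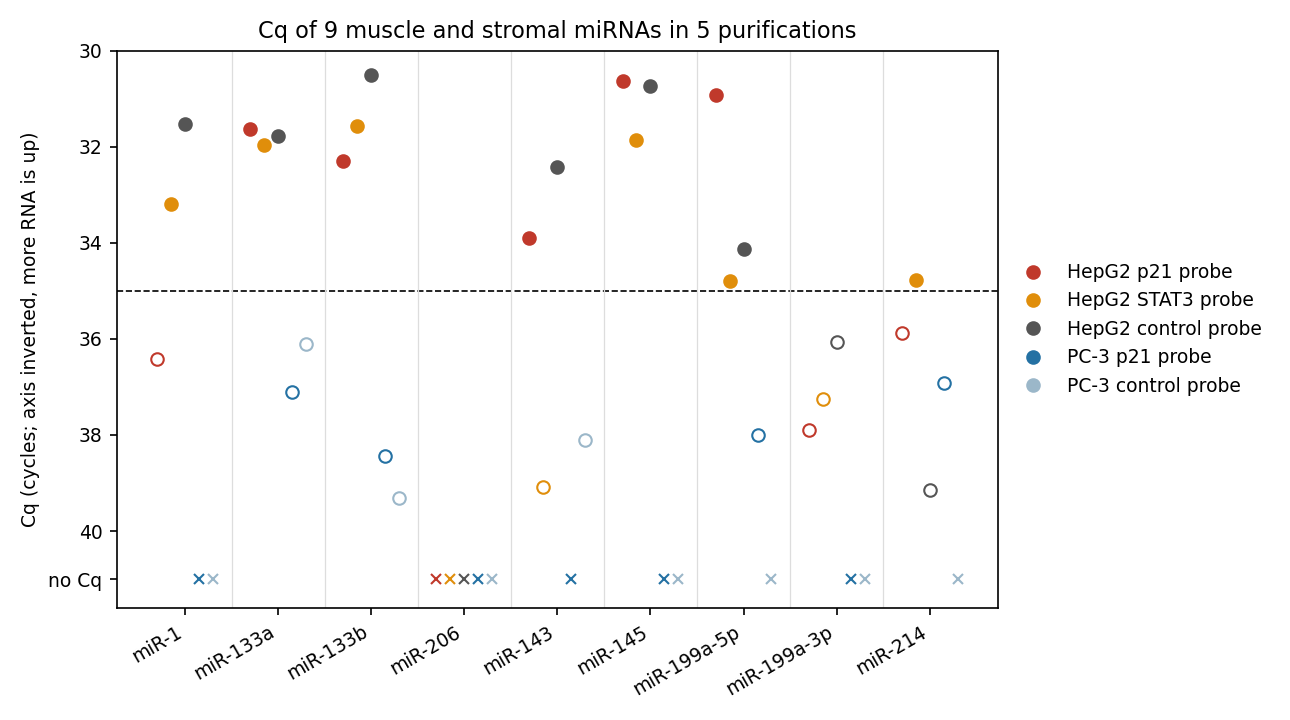
Cq in cycles (inverted axis) of the 9 miRNAs, 1 well per point, for the p21, STAT3 and control probes in HepG2 and the p21 and control probes in PC-3. Filled points are at or below the dashed limit of 35, open points lie past it and crosses mark wells with no Cq; the filled points are all from HepG2, between 30.50 (miR-133b, control probe) and 34.79 (miR-199a-5p, STAT3 probe).

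By Cq as read, with no correction for shifts of the whole panel between purifications, miR-1 and miR-133b of striated muscle were both highest with the control probe and lowest with p21. By the same reading miR-133a was level across the probes. miR-1, which drives muscle differentiation, was read at Cq 36.41 with p21 and 33.19 with STAT3, against 31.52 with control in HepG2. It was thus highest with the control probe, lower with STAT3 (-1.67 log2 units uncentred) and past the limit with p21. In PC-3 it gave no Cq with either probe. miR-133a, which shares transcripts with miR-1, had Cq 31.64 with p21 and 31.96 with STAT3, against 31.77 with control in HepG2. These 3 values span 0.32 cycles. The SD between repeated wells, 1 on each panel of the same purification, was 0.68 cycles (27 pairs of assays present on both panels). That SD takes in any offset between the panels, whereas these 3 wells are all on panel 1. In PC-3 its wells read 37.11 with the p21 probe and 36.10 with the control probe, both past the limit.

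miR-133b, which differs from miR-133a in its last base, was less even. Its Cq was 32.30 with p21 and 31.57 with STAT3, against 30.50 with control in HepG2, the lowest Cq that any member reached. Its level was highest with control, then STAT3, then p21, with uncentred differences of -1.07 log2 units for STAT3 over control and -0.73 for p21 over STAT3, the second about the SD of repeated wells. In PC-3 it was read at 38.43 with p21 and 39.31 with control. miR-206, the skeletal muscle miRNA that neighbours miR-133b, gave no Cq in any of the 5 purifications.

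The smooth muscle pair also split. miR-145 stood at Cq 30.63 with p21 and 31.86 with STAT3, against 30.73 with control in HepG2, and gave no Cq in PC-3. Its p21 and control values were 0.10 cycles apart, within the spread of repeated wells, and the STAT3 value was lower in level. miR-143 stood at Cq 33.89 with p21 and 39.09 with STAT3, against 32.43 with control, so that it passed the limit with the p21 and control probes only. In PC-3 miR-143 gave no Cq with p21 and 38.11 with control.

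Of the mesenchymal group, miR-199a-5p carried the largest contrast between probes. It was read at Cq 30.92 with p21 and 34.79 with STAT3, against 34.13 with control in HepG2, a range of 3.87 cycles, the widest among the members detected in all 3. The p21 value stood apart from the other two, which differed by about the SD of repeated wells (-0.66 log2 units uncentred for STAT3 over control). In PC-3 it read 38.00 with p21 and gave no Cq with control. The 3p arm of the same hairpin, miR-199a-3p, stayed past the limit everywhere, at 37.90 with p21 and 37.25 with STAT3, against 36.06 with control in HepG2, and it gave no Cq in PC-3. miR-214, the neighbour of miR-199a, was detected with the STAT3 probe alone, at 34.77, 0.23 cycles inside the limit, with wells of 35.88 for p21 and 39.15 for control. In PC-3 its wells read 36.91 with p21 and no Cq with control.

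To compare 2 purifications, the Cq of the first-named was subtracted from that of the second, and each panel was centred on the median of its miRNA assays detected in both, so that a value in log2 units says how far an assay lies above or below the typical assay. A value of at least 1 in size, 2-fold, was counted. The SD of an uncentred difference between repeated assays was 0.70 cycles and of a centred difference 0.62 (21 pairs each). The pairs are not independent, since the same assays and purifications recur among them. These SDs cover wells and panels but not transfection or purification. Fewer cells, less RNA recovered from them and less miRNA held by the probe cannot be told apart in these values. The p21 and STAT3 comparisons below use the same control purification.

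With the p21 probe in HepG2, 4 of the 5 members measured on both sides lay at least 2-fold below the panel median and miR-199a-5p lay above it. Of 87 panel 1 assays measured on both sides, 39.1% were at least 2-fold lower and 37.9% at least 2-fold higher. miR-133b was at -3.11 log2 units (8.61-fold lower, rank 4 from the lowest of 87), miR-143 at -2.76 (6.79-fold lower, rank 5), miR-145 at -1.20 and miR-133a at -1.17. miR-199a-5p was at 1.90 (3.73-fold higher, rank 19 from the highest). The members' median was -1.20 centred and 0.10 without centring, against a median of 1.30 without centring over the 87 assays.

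miR-1 passed the limit with the control probe only, and with p21 set at 35 it was at least 27.4-fold lower after centring, or 11.1-fold without. In the authors' deposited table, miR-1 has the lowest of 729 entries for this comparison, at 0.076, with miR-133b at 0.243 (rank 10) and miR-143 at 0.308 (rank 14). The authors' deposited table has miR-199a-5p at 7.81, while miR-199a-3p, miR-206 and miR-214 are among 227 entries at 0.849, the rebuilt value for a well at the limit on both sides.

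The direction of these shifts rested on the centre. miR-133a and miR-145 turned from lower to slightly higher without centring (0.13 and 0.10), and miR-133b and miR-143 remained lower (-1.80 and -1.46). On UniSp3, a synthetic calibrator, all 5 measured members were higher with p21, from 0.47 (miR-133b) to 5.48 (miR-199a-5p). The 3 UniSp3 wells on panel 1 read 21.60 to 24.91 in the p21 purification, against 20.51 to 21.06 in the control one, a wider spread in the p21 wells. On the reference assays (the small RNAs U6, SNORD38B and SNORD49A with miR-423-5p, miR-191 and miR-103, of which 5 were measured on panel 1) all 5 members were lower, with miR-199a-5p at -0.52. The order among the 5 measured members does not depend on the centre, since all lie on the same panel. Of these, miR-199a-5p was highest, and miR-133a and miR-145 were level with each other. miR-143 and miR-133b were lowest of the 5 and apart by less than the SD of a difference. miR-1, past the limit with p21, lay below them by its bound (at most -3.48 without centring).

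With the STAT3 probe in HepG2, 4 of the 5 measured members lay at least 2-fold below the panel median and none above it. Over the 87 panel 1 assays, 25.3% were at least 2-fold lower and 32.2% higher. miR-1 was at -2.16 log2 units (4.48-fold lower, rank 5 from the lowest of 87), miR-145 at -1.62, miR-133b at -1.56, miR-199a-5p at -1.15 and miR-133a at -0.68. The members' median was -1.56 centred and -1.07 without centring, against 0.49 without centring over the 87 assays. All 5 were lower without centring too, while on UniSp3 4 of the 5 turned positive, with miR-1 at -0.37.

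miR-143 passed the limit with control only and was at least 8.37-fold lower with STAT3 after centring, or 5.95-fold without. miR-214 passed with STAT3 only, by 0.23 cycles, too little for a bound above the panel median. The authors' deposited table has miR-143 at 0.236, rank 3 from the lowest of 729, and miR-199a-3p at 0.295, rank 10. For miR-199a-3p the value in the authors' deposited table was rebuilt, at 0.295, with the STAT3 well taken at its Cq of 37.25 and the control well, read at 36.06, taken at 35. With both wells at 35 the rebuilt value is 1.40, the one that miR-206 has in the authors' deposited table.

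**Figure D2:**
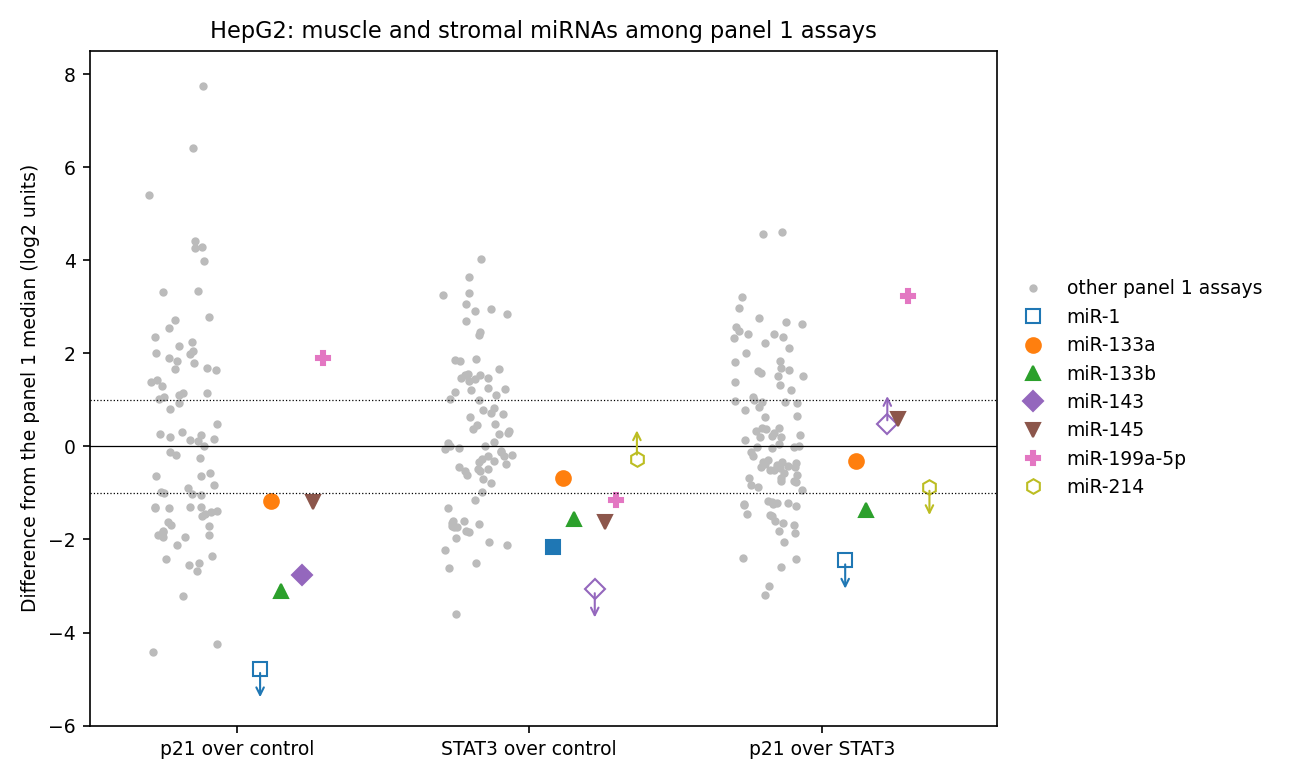
Difference from the panel 1 median in log2 units for p21 over control, STAT3 over control and p21 over STAT3 in HepG2, with grey points for the other panel 1 assays and coloured symbols for the members. Open symbols with arrows are bounds for members past the limit on one side, and dotted lines mark 2-fold; miR-199a-5p is at 1.90, -1.15 and 3.23, and miR-133b at -3.11, -1.56 and -1.37.

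Set directly against the STAT3 purification, without use of the control, the p21 purification held more miR-199a-5p and less miR-133b and miR-1. Over 102 panel 1 assays measured in both, 28.4% were at least 2-fold higher and 22.5% lower. miR-199a-5p was 3.23 log2 units above the panel median (9.36-fold, rank 3 from the highest of 102) and miR-133b was at -1.37 (2.59-fold lower). miR-145 (0.59) and miR-133a (-0.32) stayed within 2-fold, and miR-1, with p21 set at 35, was at least 5.45-fold lower after centring, or 3.50-fold without. miR-199a-5p was higher under every centre tried, from 2.21 on the reference assays to 4.85 on UniSp3, whereas miR-133b turned to 0.25 on UniSp3. The members' median was 0.13, from 4 members that moved in both directions.

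**Figure D3:**
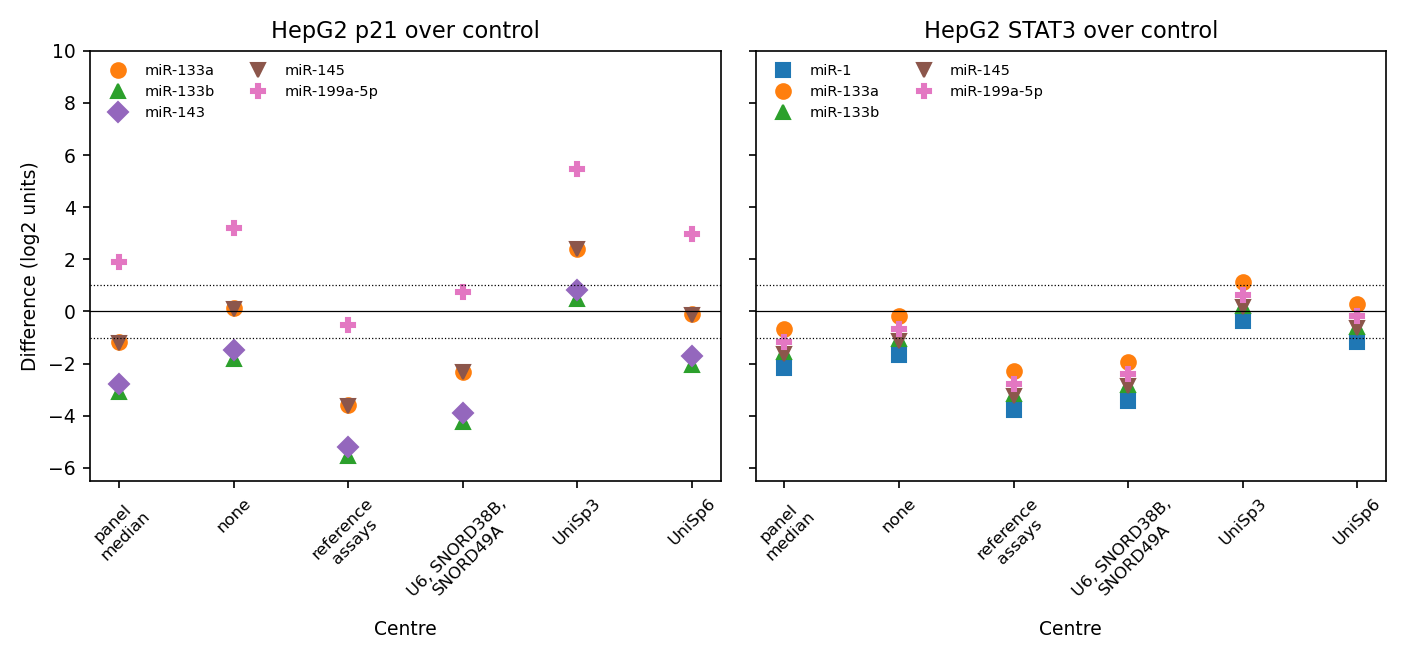
Difference in log2 units of the measured members for p21 over control (left) and STAT3 over control (right) in HepG2 under 6 centres, with dotted lines at 2-fold. All members shift together from centre to centre; on the left miR-199a-5p runs from -0.52 on the reference assays to 5.48 on UniSp3, and on the right miR-1 stays below 0 throughout.

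As read in single purifications, the ratio between partners from the same transcript differed between probes. Where every well was detected, these changes lay below 2 SD of repeated wells. The difference between partner assays within a purification depends on each assay's efficiency, so its change between probes is what can be read, and that change needs no centre because both wells share a panel. From the SD of a difference, such a change has an SD of 0.99 log2 units. miR-1 relative to miR-133a was -1.24 with STAT3, against 0.24 with control, a change of -1.48. With p21 miR-1 was at most -3.36 relative to miR-133a, a change from control of at most -3.61, and -4.77 if the well past the limit is read as it stands. The STAT3 change lies between 1 and 2 SD of repeated wells and the p21 bound past 2 SD. This SD leaves out the spread between purifications, and both changes use the same control purification. Both miRNAs have copies on chromosomes 18 and 20, which these assays do not separate.

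miR-143 relative to miR-145 was -3.26 with p21, against -1.69 with control, a change of -1.56. With STAT3 it was at most -3.14, a change from control of at most -1.45, and -7.23 with the miR-143 well read as it stands at 39.09. The p21 change and the STAT3 bound lie between 1 and 2 SD. miR-133b and miR-206 could not be compared, since miR-206 was never read. With miR-206 set at 35, it was at most -2.70 with p21 and -3.43 with STAT3 relative to miR-133b, against -4.50 with control in HepG2, with assay efficiencies unknown.

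The near-identical miR-133a and miR-133b, which are not in the same cluster, also differed between probes in their ratio, a comparison added after their values were seen. miR-133a relative to miR-133b was 0.66 with p21 and -0.39 with STAT3, against -1.27 with control. The change was 1.94 for p21 over control, 0.88 for STAT3 over control and 1.05 for p21 over STAT3. The p21 change lies between 1 and 2 SD, and the other two are about 1 SD or less. All 6 wells were between Cq 30.50 and 32.30, well inside the limit.

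Of the arms of miR-199a, the 5p arm was detected in each HepG2 purification and the 3p arm in none. miR-199a-5p stood at least 4.08 log2 units above miR-199a-3p with p21 and at least 0.21 with STAT3, against at least 0.87 with control, with the 3p arm set at the limit. With the 3p wells read as they stand, the differences were 6.97 with p21 and 2.46 with STAT3, against 1.93 with control. For p21 over control the 5p arm was 3.20 log2 units higher without centring, while the 3p wells, at 37.90 with p21 and 36.06 with control, ran the other way past the limit. miR-199b-5p, from a related gene, was detected with the p21 probe alone, at 34.20, with a well of 36.56 for STAT3 and no Cq for control.

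Relative to miR-214, which lies on the same primary transcript as MIR199A2, miR-199a-5p was at least 4.08 higher with p21 and level with it at -0.01 with STAT3, against at least 0.87 higher with control, with miR-214 set at the limit for p21 and control. With the miR-214 wells read as they stand, miR-199a-5p was 4.96 higher with p21, against 5.02 higher with control, a change of -0.07, so p21 and control cannot be ordered for this pair. The change, p21 over STAT3, was at least 4.09 log2 units. Of the 3 star strands on panel 2, miR-214* was detected with the STAT3 probe alone, at 34.75, where miR-214 itself was also detected, at 34.77. Both wells lie just inside the limit of 35, and 34.4% of all 745 miRNA assays passed in that purification. miR-143* (35.53 with p21, 36.57 with STAT3 and 37.14 with control) and miR-145* (36.41 with p21, 37.17 with STAT3 and no Cq with control) stayed past the limit.

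**Figure D4:**
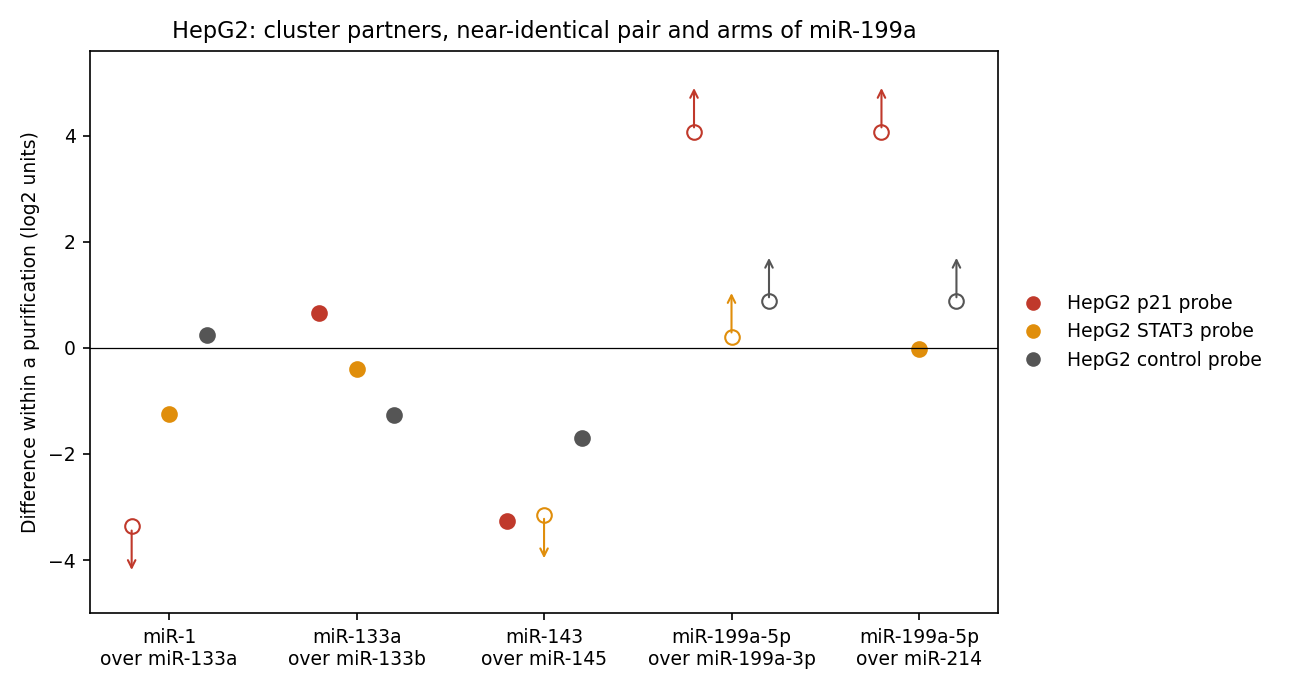
Level of the first miRNA over the second within each HepG2 purification, in log2 units from the difference of Cq, for the p21, STAT3 and control probes. Filled points have both assays detected and open points with arrows are bounds with the undetected assay at Cq 35; miR-143 over miR-145 is -3.26 with p21, at most -3.14 with STAT3 and -1.69 with control.

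Between the lines, all members detected in HepG2 were past the limit or without a Cq in PC-3 with the same probe. So were most panel 1 assays. Of 128 detected in HepG2 with p21, 31 were detected in both lines, and of 108 with control, 6 were. With the p21 probe the 5 members detected in HepG2 were at least 1.11 (miR-143) to 4.37 (miR-145) log2 units above PC-3 at Cq 35 without centring. Panel 1 assays detected in both lines with p21 had a median 2.50 higher in HepG2 (31 assays, of which 41.9% were at least 2-fold above and 29% at least 2-fold below that median). Against that median the 5 lower bounds ran from -1.39 (miR-143) to 1.86 (miR-145), and only for miR-145 and miR-199a-5p (1.57) does the bound pass 2-fold. Members enter these bounds only through their level in HepG2, so that side is fixed by the choice and the other members give no value. With the control probe the 6 members detected in HepG2 were at least 0.87 (miR-199a-5p) to 4.50 (miR-133b) above PC-3 without centring. Centred on the only 6 panel 1 assays detected in both, of which 33.3% were at least 2-fold higher and 16.7% lower, these bounds ran from -0.72 (miR-199a-5p) to 2.91 (miR-133b). For p21 against control within PC-3, 0 members were measured on both sides, and of the 6 panel 1 assays that were, 33.3% were at least 2-fold higher and 16.7% lower. The authors' deposited table gives all 9 a fold of 0.71 there, a value that 335 of its 729 entries share.

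A list of 19 other miRNAs reported in muscle, fibroblasts or mesenchyme was also counted. Whether they are particular to such cells was not tested. Of these, 12 were detected in HepG2 with the p21 probe, 11 with STAT3 and 9 with control. PC-3 gave 1 with p21, miR-24 at 32.30, and 0 with control. All assays of the list that passed the limit sit on panel 1. Of all panel 1 assays, 34.1% passed with p21, 37.1% with STAT3 and 28.8% with control in HepG2. For PC-3 these shares were 10.1% (p21) and 2.13% (control). Since miR-208a and miR-208b sit on panel 2, shares of all 745 miRNA assays of both panels are given as well. Of those, 28.3% passed the limit with p21, 34.4% with STAT3 and 16.8% with control in the HepG2 purifications. For PC-3 the shares over both panels were 7.11% (p21) and 2.15% (control). The heart and muscle miRNAs miR-208a, miR-208b, miR-499-5p and miR-486-5p were past the limit or without a Cq in all 5 purifications. So were miR-10a, miR-10b and miR-152 of the same list. For p21 over control, 1 of the 9 measured in both (miR-24, at 1.89) was at least 2-fold above the panel median and 3 (miR-29b at -1.42, miR-125b and miR-29c at -1.30) were below, with a median of -0.58, beside 37.9% and 39.1% of the panel. Without centring the tally turned to 4 higher and 0 lower, with a median of 0.73, beside 47 higher and 10 lower of the 87 panel 1 assays. Uncentred, miR-29b was at -0.11 while miR-125b and miR-29c were level with control. For STAT3 over control, 4 were above (miR-125b 1.86, miR-99a 1.53, miR-24 1.44 and miR-23b 1.23) and 2 below (miR-29c -2.13 and miR-29a -1.73), with a median of 0.48, beside 32.2% and 25.3% of the panel. Without centring the tally was again 4 and 2, with a median of 0.97, beside 34 higher and 19 lower of the 87 panel 1 assays. miR-27b (0.20 and 0.48) and miR-21 (-0.58 and 0.07) stayed within 2-fold of the median with both probes. For STAT3 the median of these miRNAs thus lay on the other side of the panel median from that of the members (-1.56), a difference that was not tested.

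The assays whose Cq lay nearest to each member over the 5 purifications, with undetected wells at 35, were drawn from mixed groups. For miR-133b these were miR-126, miR-9 and miR-223, with mean absolute differences of 0.39, 0.44 and 0.54 cycles. They are known from endothelium, brain and myeloid cells. For miR-133a they were miR-126 (0.39), let-7i (0.41) and miR-30b (0.42), and for miR-145 miR-21 (0.35), miR-27b (0.44) and miR-19b (0.49). For miR-199a-5p they were miR-196b (0.26), miR-1224-3p (0.27) and miR-1913 (0.33). miR-196b read 30.78 with p21 and 33.83 with STAT3, against 34.32 with control, a pattern with the same high p21 level. With 5 purifications, of which 2 are at the limit, this likeness is a description of these wells.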

How the data were processed

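Labels gave each sample its line, probe and panel, and the 2 panels are not replicates. Per the labels, miRNAs were measured with Exiqon SYBR Green RT-PCR panels. The authors deposited unnormalised Cq values, 1 well per assay, and a table of fold ratios which per the file headers are 2 to the power of minus ΔΔCt against an unnamed housekeeping gene (its columns are titled as log values, but none is below 0). With UniSp6 of panel 1 as normaliser and undetected wells at Cq 35, both inferred from the values, 26 of the 27 deposited fold ratios of the members were rebuilt within 0.01 log2. The sources used here give no instrument, threshold or software.

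Tables were computed in Python 3.11.15 with pandas 2.3.3. Cq at most 35 was detection, 1 cycle was taken as 1 log2 unit, differences were centred per panel on the median of assays detected in both, and 1 log2 unit was counted. The calculation was tested on simulated data. The members, lists and rules (all members named, the 3 nearest assays for those detected in all 3 HepG2 purifications) were chosen with earlier results of these data known. Mature sequences come from RefSeq. The miR-133a and miR-133b comparison was added later.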

Additional observations from a re-analysis of the deposited data

How the results depend on the processing

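Medians over members moved with the centre. For p21 over control in HepG2 (-1.20) the median was 0.10 without centring, -3.62 on the reference assays, -2.34 on U6, SNORD38B and SNORD49A, 2.38 on UniSp3, -0.14 on UniSp6, -2.25 at a limit of Cq 32 (2 members) and -0.24 from the authors' deposited folds of all 9. For STAT3 over control (-1.56) it was -3.18 on the reference assays, -2.82 on the small RNAs, 0.23 on UniSp3, -0.58 on UniSp6 and from the deposited folds, and -2.98 at Cq 32 (3 members). For p21 over STAT3 (0.13) it was -0.88 on the reference assays, 1.75 on UniSp3, -0.63 at Cq 37 (6 members) and -0.64 with all 9 kept at 35. The lower bounds for HepG2 over PC-3 with p21 (median 0.86) became 3.36 without centring, 2.11 on the reference assays, 2.86 on the small RNAs, 4.42 on UniSp3, 2.29 on UniSp6, -1.33 at Cq 32, 2.59 at Cq 37 and -1.39 with all 9 at 35. With control (1.76) they became 3.35 without centring, 3.16 on either set of reference RNAs, -1.45 at Cq 32, 2.91 at Cq 37 and 0.98 with all 9 at 35. These medians cover members chosen by detection in HepG2, so their direction is no finding. A lower limit makes such bounds smaller by construction, and members undetected on both sides take minus the panel shift.

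Single members turned direction as follows. For p21 over control, miR-133a (0.13) and miR-145 (0.10) turned without centring, miR-199a-5p (-0.52) on the reference assays, and miR-143 (0.82), miR-133b (0.47), miR-133a (2.41) and miR-145 (2.38) on UniSp3. For STAT3 over control, miR-133b (0.23), miR-199a-5p (0.64), miR-133a (1.11) and miR-145 (0.17) turned on UniSp3, and miR-133a (0.30) on UniSp6 and in the deposited folds. For p21 over STAT3, miR-133a turned without centring (0.32) and on UniSp3 (1.30), miR-145 on the reference assays (-0.43) and miR-133b on UniSp3 (0.25). Apart from the construction of the bounds, the cause was not tested.

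At Cq 32, HepG2 gave 3 members with p21 (14.1% of panel 1), 3 with STAT3 (12% of panel 1) and 4 with control (7.2%). At Cq 37, HepG2 gave 7 with p21 (48.8% of panel 1), 6 with STAT3 (65.1%) and 7 with control (42.4%). For STAT3 at Cq 37 the share of members, 66.7%, was thus close to that of the panel. PC-3 at Cq 37 gave 1 with p21 (19.7%) and 1 with control (7.2%). miR-1 over miR-133a, p21 against control, changed by at most -0.61 at Cq 32 and by -5.02 at Cq 37, and miR-143 over miR-145, STAT3 against control, by at most -3.45 at Cq 37 (bounds -3.61 and -1.45 at 35). No paired analysis was possible because each condition was purified 1 time. No value was had for p21 over control in PC-3. Wells close to Cq 35 start from few molecules, and the SDs of repeated wells understate their error.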
